A study of Bos taurus with 9 samples.

Results

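Transcript levels of 47 genes were compared between bovine (Bos taurus) blastocysts vitrified and warmed with α-ketoglutarate (AKG) and blastocysts vitrified and warmed without it. The members are all genes of the deposited series table, 47 of 47, and the compared libraries are 6 of the 9 in the series. The AKG-treated group, labelled vitrified-warmed (AKG+), had 3 libraries, the AKG-free group, labelled vitrified-warmed (AKG-), had 3, and the group labelled Control had 3. All 9 carry the sex label female and the tissue label embryo, and the series text names the stage as blastocyst. No source used here gives the dose or timing of AKG, the handling of the controls or how many embryos went into a library. Library preparation was for very small RNA samples, and the libraries are labelled single-cell although the stated source is the embryo, so they are described here as whole-embryo libraries. No label says whether libraries of a group came from different batches of embryos, and each p-value is relative to a spread between libraries that can be technical in part.

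Vitrification cools an embryo so fast, in concentrated cryoprotectant, that its water solidifies as a glass without ice crystals, and the procedure is known to expose cells to osmotic and oxidative stress. AKG is an intermediate of the tricarboxylic acid cycle, a precursor of glutamate and a co-substrate of the dioxygenases that demethylate DNA and histones and hydroxylate hypoxia-inducible factor. A blastocyst consists of a trophectoderm, which forms the fetal part of the placenta, and an inner cell mass around which a primitive endoderm forms.

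The 47 genes are presented in the deposited table as differentially expressed, and no source used here says how they were picked. Tests within such a list describe how far the groups separate and are not independent evidence of a difference. The annotation classes 43 of the 47 as protein coding, 3 as long noncoding RNA and 1 as pseudogene, and 12 lack a symbol. Levels are given as FPKM (fragments normalised to gene length and to library size), so that levels of different genes can be set side by side per length. The test was edgeR's quasi-likelihood test on the deposited counts, with Benjamini-Hochberg adjustment and a threshold of 0.05. It covered, and was adjusted over, the 29 genes with a mean of at least 0.5 FPKM over the 9 libraries. This filter was not blind to direction. CRYAB, CCL27, DMKN, CYP27B1, PYCARD, ENSBTAG00000052298 and ENSBTAG00000053475 had AKG-treated and control means under 0.5 FPKM, so they passed through AKG-free libraries alone. Their lower levels with AKG, and the lower calls of CRYAB, CCL27 and DMKN, are therefore no support for a direction. Relative sequencing depth ran from 0.903 to 1.02 in AKG-treated libraries and from 1.01 to 1.17 in AKG-free libraries. Absolute depth is unknown. Positions are those of the deposited annotation, with no build named in the sources used here.

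With AKG, 7 of the 29 tested genes rose and 11 fell, which are 24.1% and 37.9% of the genes tested, while 11 missed the threshold. At an unadjusted p under 0.05 the counts were 8 higher and 15 lower. Since the tested genes are all listed genes that passed the filter, these shares are their own background. They include the genes that passed it through AKG-free libraries alone. The calls were narrow. TPRG1 had an adjusted p of 0.00434 in edgeR's quasi-likelihood test, and the other 17 had values from 0.0403 to 0.0491. TPRG1 passed in all 9 fits that left out 1 library, and each of the other 17 passed in 1 to 3 of the 9. Leaving out AKG-treated library 1, 2 or 3 left 1 higher gene each time and 1, 0 and 1 lower genes in edgeR, with 9, 5 and 5 lower at an unadjusted p under 0.05. Without AKG-free library 1, 2 or 3 the higher genes numbered 5, 1 and 2 and the lower genes 14, 0 and 1, with 16, 5 and 4 lower at an unadjusted p under 0.05 in edgeR. Control libraries enter the fits through the shared estimate of spread, and they also enter the filter. Without control library 1, 2 or 3, 1, 8 and 2 genes were higher and 0, 16 and 0 lower in edgeR. At an unadjusted p under 0.05 in edgeR, 13, 19 and 13 were then lower. The filter over 9 libraries was kept in all fits that left out libraries, so these do not show how calls depend on it. TPRG1 passed the filter at 0.535 FPKM, from means of 0.909 FPKM in AKG-treated, 0.695 FPKM in control and 0 FPKM in AKG-free libraries. It would have missed the filter over the 6 compared libraries, and also over control and AKG-free libraries. Its higher call is therefore no support for a direction. With the 6 compared libraries alone, 4 genes were higher and 0 lower in edgeR, with 14 lower at an unadjusted p under 0.05. Scaling by TMM factors or DESeq2 size factors, which were estimated from these genes themselves, moved the log2 fold changes upward by a median of 1.59 and 1.17. The median over the tested genes, -1.87 without such a factor, became -0.12 and -0.51. The calls then numbered 6 higher and 0 lower genes with TMM factors and 5 higher and 0 lower with DESeq2 size factors in edgeR, with 3 and 5 lower at an unadjusted p under 0.05. The values of each library are therefore given with every gene, and the adjusted p from edgeR's quasi-likelihood test follows them.

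Of 3 listed genes of protein folding and glycan processing, 2 fell with AKG and 1 missed the threshold, and all 3 had lower AKG-treated libraries that did not overlap AKG-free libraries. Over all tested genes 37.9% were called lower and 41.4% were separate and lower. CRYAB (ENSBTAG00000000434, chromosome 15, 22242326 to 22246349), a chaperone of the small heat shock family, was at 0.464, 0.266 and 0 FPKM in AKG-treated libraries 1, 2 and 3, against 7.25, 9.47 and 17.3 FPKM in AKG-free libraries 1, 2 and 3. The lowest AKG-free library was 15.6-fold above the highest AKG-treated library. These levels rested on 37, 23 and 0 counts in AKG-treated libraries and 699, 837 and 1763 counts in AKG-free libraries. The means were 0.243 ± 0.233 and 11.3 ± 5.30 FPKM (SD, n = 3 each), 46.7-fold lower with AKG, and the edgeR log2 fold change was -5.52 (SE 1.69, adjusted p = 0.0487). Without AKG-treated library 1 the fold between means was 85.4. Control libraries held no CRYAB reads, so CRYAB passed the filter through AKG-free libraries alone.

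FKBP7 (ENSBTAG00000001097, chromosome 2, 18418695 to 18426410), a prolyl isomerase of the endoplasmic reticulum, had 5.19, 5.56 and 5.41 FPKM in AKG-treated libraries, against 9.67, 16.3 and 21.4 FPKM in AKG-free libraries. The highest AKG-treated library was 1.07-fold above the lowest, while the AKG-free libraries spread 2.21-fold. FKBP7 fell 2.93-fold between means with AKG (edgeR log2 fold change -1.55, SE 0.57, adjusted p = 0.0487), although the sign turned under TMM factors, to 0.25. MANEA, an endomannosidase of the Golgi that trims N-linked glycans, had 30.3, 25.6 and 22.4 FPKM with AKG and 35.5, 75.6 and 64.5 FPKM without. Its groups were separate by a ratio of 1.17 only, and its log2 fold change of -1.16 missed the threshold (edgeR adjusted p = 0.0663, 95% interval -2.36 to 0.03) and turned to 0.55 under TMM factors and 0.07 under DESeq2 size factors. Of 15 heat shock genes looked up, CRYAB was the 1 on the list.

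**Figure D1:**
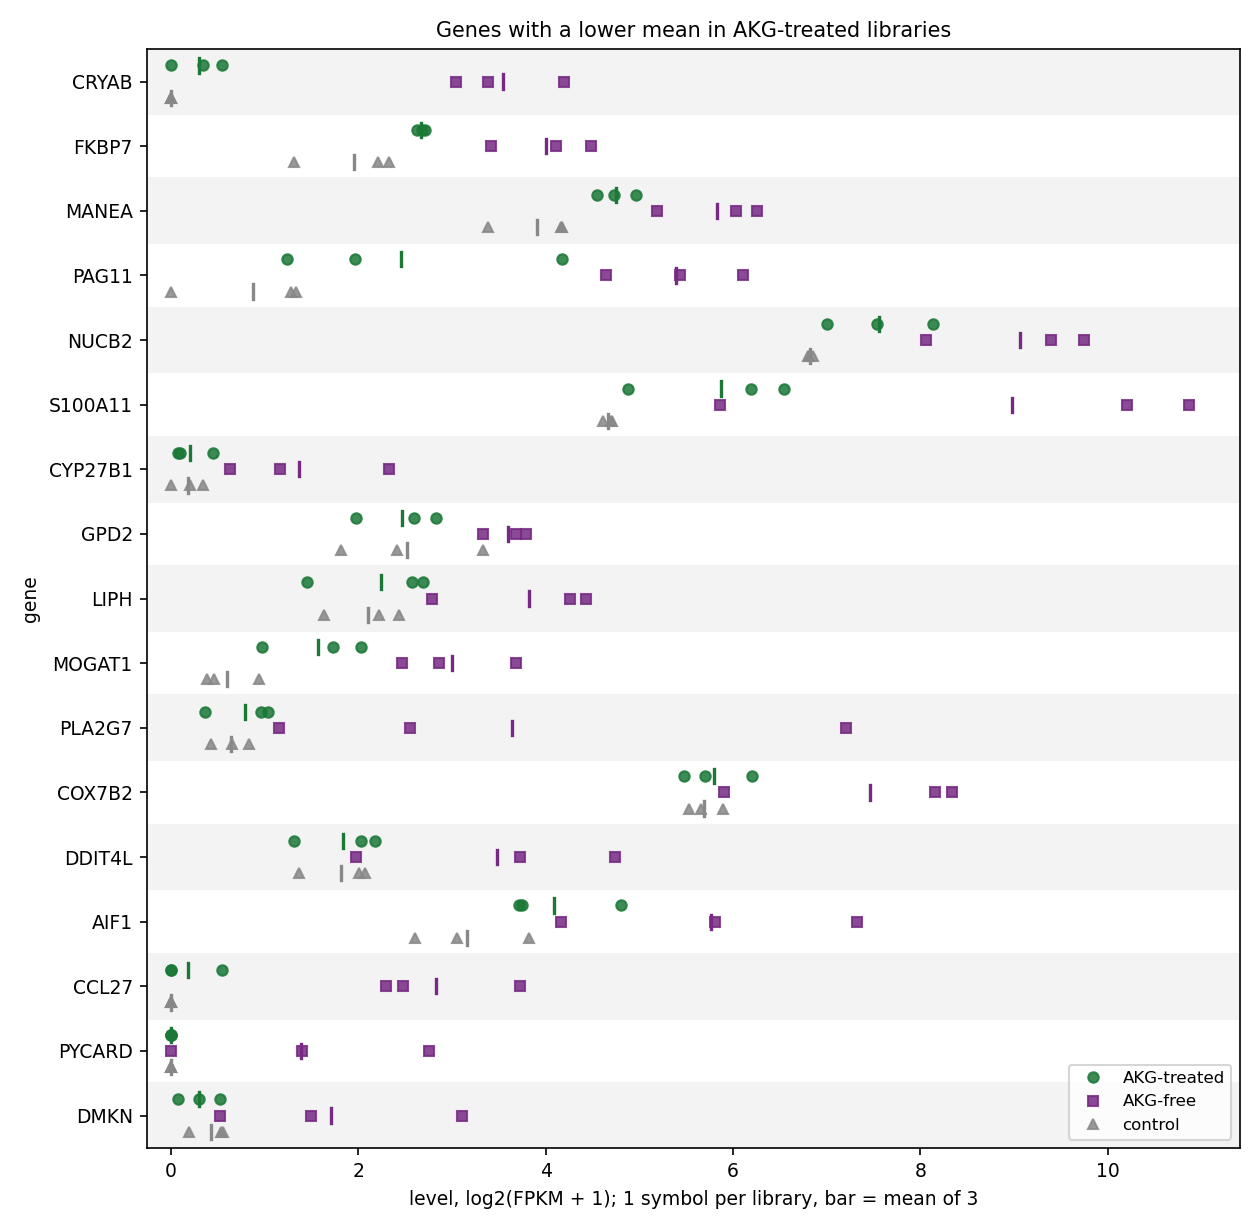
Level of each tested gene with a symbol whose mean was lower in AKG-treated libraries, as log2(FPKM + 1) on the x axis, with 1 symbol per library and a bar at the mean of each group of 3. The nearest AKG-treated and AKG-free libraries are 15.6-fold apart in FPKM for CRYAB, 8.60-fold for CCL27 and 1.74-fold for FKBP7, and the other separate genes are closer. CRYAB and CCL27 passed the filter through AKG-free libraries alone, so their gaps are no support for a direction. S100A11, NUCB2, COX7B2 and AIF1 overlap through AKG-free library 1, as does PYCARD at 0 FPKM, and DDIT4L overlaps through AKG-free library 3.

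The list held 1 gene of the trophoblast, PAG11 (ENSBTAG00000022759, chromosome 29, 39438824 to 39456485), a secreted product of the ruminant placenta from the pregnancy-associated branch of the aspartic proteases. PAG11 had 1.36, 17.1 and 2.90 FPKM in AKG-treated libraries, set against 42.2, 67.9 and 24.0 FPKM in AKG-free libraries. The groups did not overlap, yet AKG-treated library 2 stood at 1336 counts beside 98 and 236 counts in libraries 1 and 3. Its means differed 6.30-fold, and 21.0-fold without AKG-treated library 2. The log2 fold change of -2.65 missed the threshold in edgeR (adjusted p = 0.145, 95% interval -6.44 to 1.14), and limma on log2(FPKM + 1) placed it past the threshold (adjusted p = 0.0226). PAG genes are a large family of similar sequence, so reads could have been divided among copies. In such libraries fewer cells of a type and less RNA per cell cannot be told apart. PAG11 was the 1 listed gene of 13 trophectoderm markers looked up. None of 6 markers of the inner cell mass, 6 of the primitive endoderm, 6 of cumulus or granulosa cells, 4 of blood and 3 of sperm was on the list, so these cell types were not analysed here.

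Both genes set out as calcium-binding proteins, S100A11 and NUCB2, fell with AKG in the test, as did 37.9% of all tested genes, although their libraries overlapped. S100A11 (ENSBTAG00000015145, chromosome 3, 18727498 to 18733580), a calcium sensor of the S100 family that binds annexins, had 92.4, 28.4 and 72.2 FPKM in AKG-treated libraries, against 57.4, 1178 and 1866 FPKM in AKG-free libraries. AKG-free library 1 lay between the AKG-treated values, and AKG-free libraries 2 and 3 were more than 10-fold above every AKG-treated library. S100A11 took 13.8%, 6.28% and 16.0% of the counts over the 47 genes in AKG-treated libraries and 9.51%, 48.2% and 50.3% in AKG-free libraries. The means were 64.3 ± 32.8 and 1034 ± 913 FPKM (edgeR log2 fold change -4.01, SE 1.16, adjusted p = 0.0443). Between means the fold was 16.1, and 9.60 without AKG-free library 3. NUCB2 (ENSBTAG00000017468, chromosome 15, 35156660 to 35179353), a calcium-binding protein of the Golgi and the precursor of nesfatin, had 281, 185 and 127 FPKM with AKG and 265, 674 and 859 FPKM without. AKG-treated library 1 exceeded AKG-free library 1. NUCB2 fell 3.03-fold between means (edgeR log2 fold change -1.60, SE 0.595, adjusted p = 0.0487), with the sign turned under TMM factors, to 0.13.

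Lipid and steroid enzymes formed the largest named group, with 7 listed genes. All 5 that were tested had separate libraries and lower values with AKG, 2 of them past the threshold, beside 41.4% of all tested genes separate and lower and 37.9% called lower. The median log2 fold change of the 5 was -1.87, the same as over all 29 tested genes, and the share called was close to that background. Among the 5, CYP27B1 passed the filter through AKG-free libraries alone and is no support for a direction. The untested AKR1D1 and HMGCLL1 had overlapping libraries. LIPH (ENSBTAG00000001535, chromosome 1, 81636267 to 81688516), a phospholipase that makes lysophosphatidic acid, had 5.48, 4.96 and 1.74 FPKM with AKG, against 5.89, 18.1 and 20.6 FPKM without. AKG-free library 1 was only 1.07-fold above the highest AKG-treated library. LIPH fell 3.67-fold between means (edgeR log2 fold change -1.87, SE 0.712, adjusted p = 0.0491). PLA2G7 (ENSBTAG00000019315, chromosome 23, 19924777 to 19963342), which hydrolyses platelet-activating factor and oxidised phospholipids, had 0.954, 0.286 and 1.05 FPKM with AKG, against 1.22, 4.87 and 147 FPKM without. One library set the size of this difference: the means differed 66.8-fold, and 4.00-fold without AKG-free library 3, while the edgeR log2 fold change over all libraries was -6.05 (SE 1.82, adjusted p = 0.0443).

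MOGAT1, which makes diacylglycerol from monoacylglycerol, had 3.07, 2.31 and 0.964 FPKM in AKG-treated libraries, against 4.52, 6.27 and 11.9 FPKM in AKG-free libraries. The lowest AKG-free value was 1.47-fold above the highest AKG-treated value, and the log2 fold change of -1.84 missed the threshold narrowly (edgeR adjusted p = 0.0537, 95% interval -3.51 to -0.16). GPD2, the mitochondrial glycerol-3-phosphate dehydrogenase that passes electrons to the respiratory chain, had 5.03, 6.11 and 2.92 FPKM with AKG and 11.9, 9.05 and 12.9 FPKM without. This was the steadiest gene of the group among AKG-free libraries, and its 2.40-fold difference of means also missed the threshold (edgeR adjusted p = 0.083, 95% interval -2.68 to 0.16), with a log2 fold change of -1.26 that turned to 0.18 under TMM factors. CYP27B1, the enzyme that activates vitamin D, had 0.363, 0.0514 and 0.0721 FPKM with AKG, against 1.24, 0.545 and 4.03 FPKM without. Its means differed 11.9-fold, 31.4-fold without AKG-treated library 1 and 5.50-fold without AKG-free library 3, and the test missed (edgeR adjusted p = 0.0691, 95% interval -7.28 to 0.18). AKR1D1, a steroid reductase of bile acid synthesis, and HMGCLL1, a lyase of ketone body synthesis, were too low to test and are given with the genes seen in 1 library.

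COX7B2 and DDIT4L also fell with AKG in the test, with overlapping libraries. COX7B2 (ENSBTAG00000050016, chromosome 6, 65334350 to 65334586), a cytochrome c oxidase subunit with a close relative in COX7B, had 43.4, 72.9 and 50.9 FPKM in AKG-treated libraries, against 58.8, 285 and 322 FPKM in AKG-free libraries. AKG-treated library 2 was above AKG-free library 1. COX7B2 fell 3.98-fold between means (edgeR log2 fold change -1.99, SE 0.69, adjusted p = 0.0487), and the sign turned under TMM factors, to 0.017. It was the 1 listed gene of 16 respiratory chain genes looked up. DDIT4L (ENSBTAG00000010610, chromosome 6, 24526441 to 24531397), a stress-induced inhibitor of mTOR signalling, had 3.08, 1.49 and 3.53 FPKM with AKG, against 12.3, 25.8 and 2.95 FPKM without. AKG-free library 3 lay among the AKG-treated values, and AKG-free library 2 was highest. DDIT4L means differed 5.07-fold, and 2.82-fold without AKG-free library 2 (edgeR log2 fold change over all libraries -2.34, SE 0.838, adjusted p = 0.0487).

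Of 3 genes linked to inflammation, 1 fell, against 37.9% of all tested genes. CCL27 and PYCARD passed the filter through AKG-free libraries alone, so neither is support for a direction. CCL27 (ENSBTAG00000014908, chromosome 8, 76027403 to 76028140), a chemokine best known from skin, had 0.455, 0 and 0 FPKM in AKG-treated libraries, against 3.91, 12.2 and 4.56 FPKM in AKG-free libraries. The counts were 11, 0 and 0 with AKG and 110, 314 and 135 without, and the lowest AKG-free library was 8.60-fold above AKG-treated library 1. CCL27 fell 45.5-fold between means, 27.9-fold without AKG-free library 2 and 30.3-fold without AKG-treated library 2 or 3. The AKG-treated mean rests on the 11 counts of library 1, without which it is 0 and the fold becomes at least 58.7 against a floor of 3 counts per library (edgeR log2 fold change over all libraries -5.41, SE 1.87, adjusted p = 0.0487). AIF1, which bundles actin in macrophages and microglia, had 12.4, 27.0 and 12.2 FPKM with AKG, against 16.9, 55.0 and 160 FPKM without. AKG-treated library 2 exceeded AKG-free library 1, and the 4.49-fold difference of means, 2.09-fold without AKG-free library 3, missed the threshold (edgeR adjusted p = 0.0537, 95% interval -4.21 to -0.12). PYCARD, the adaptor of inflammasomes, had no reads in AKG-treated libraries and 0, 5.77 and 1.63 FPKM in AKG-free libraries 1, 2 and 3. Its mean was at least 37.6-fold lower with AKG, and at least 12.4-fold lower without AKG-free library 2, against the same floor, and it missed the threshold (edgeR adjusted p = 0.0562).

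A gene without a symbol, ENSBTAG00000050611 on chromosome 27, carries the deposited annotation of a defence response gene acting in mucosal innate immunity. Its levels were 19.6, 32.4 and 22.1 FPKM in AKG-treated libraries, against 23.7, 103 and 232 FPKM in AKG-free libraries, and fell 4.84-fold between means, 2.57-fold without AKG-free library 3 (edgeR log2 fold change over all libraries -2.27, SE 0.839, adjusted p = 0.0487). Again AKG-free library 1 lay among the AKG-treated values. ENSBTAG00000052882, a long noncoding RNA on chromosome 7, had 54.5, 63.5 and 52.2 FPKM with AKG and 75.8, 171 and 149 FPKM without, and missed the threshold with separate libraries (edgeR adjusted p = 0.0537, 95% interval -2.34 to -0.09), its log2 fold change of -1.22 turning to 0.56 under TMM factors and 0.06 under DESeq2 size factors.

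DMKN (ENSBTAG00000015912, chromosome 18, 46166501 to 46178470), a secreted protein of the epidermis, was the tested member of 4 epithelial and extracellular genes. DMKN passed the filter through AKG-free libraries alone, so its lower level is no support for a direction. Its levels were 0.440, 0.232 and 0.0517 FPKM in AKG-treated libraries, against 0.442, 1.83 and 7.62 FPKM in AKG-free libraries. AKG-treated library 1 and AKG-free library 1 were equal to within a ratio of 1.003, so the groups barely separate. The means differed 13.7-fold, 4.70-fold without AKG-free library 3 and 23.2-fold without AKG-treated library 1 (edgeR log2 fold change over all libraries -3.75, SE 1.23, adjusted p = 0.0487).

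CARMIL1, ROGDI, TPRG1 and SYCP2 rose with AKG and had separate libraries, as did 24.1% of the tested genes by each measure. They were placed together with their values known and are no fixed pathway, so their number is a description only. CARMIL1 (ENSBTAG00000016549, chromosome 23, 32267215 to 32573502), which frees actin filament ends from capping protein, had 3.42, 5.23 and 5.01 FPKM in AKG-treated libraries, against 0.573, 0.992 and 0.396 FPKM in AKG-free libraries. Every AKG-treated library was at least 3.45-fold above every AKG-free library. CARMIL1 rose 6.97-fold between means (4.55 ± 0.987 and 0.654 ± 0.306 FPKM; edgeR log2 fold change 2.80, SE 0.655, adjusted p = 0.0403). ROGDI (ENSBTAG00000016331, chromosome 25, 3872510 to 3882364), a leucine zipper protein associated with the vesicle proton pump, had 15.6, 12.1 and 21.7 FPKM with AKG, against 5.49, 2.71 and 5.30 FPKM without. The groups were 2.20-fold apart at their nearest libraries, and ROGDI rose 3.66-fold between means (edgeR log2 fold change 1.87, SE 0.558, adjusted p = 0.0443).

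TPRG1 (ENSBTAG00000032538, chromosome 1, 78014932 to 78184743), named for regulation by the p63 transcription factor, had 0.915, 0.677 and 1.14 FPKM in AKG-treated libraries, against no reads in the 3 AKG-free libraries. The AKG-treated libraries held 92, 74 and 129 counts, so the mean was at least 36.7-fold higher with AKG against a floor of 3 counts per library (edgeR adjusted p = 0.00434). In the fits that left out 1 library its edgeR adjusted p ran from 0.00548 to 0.0175, and it also passed in the 9 other alternatives that tested it. TPRG1 would have missed the filter without its AKG-treated libraries, so its call is no support for a direction. SYCP2 (ENSBTAG00000003608, chromosome 13, 56624611 to 56685728), a lateral element protein of the synaptonemal complex of meiotic chromosomes, had 2.56, 5.64 and 0.488 FPKM with AKG, against 0.128, 0.0128 and 0.409 FPKM without. AKG-treated library 3 was 1.19-fold above AKG-free library 3. The means differed 15.8-fold, 8.33-fold without AKG-treated library 2 and 41.1-fold without AKG-free library 3 (edgeR log2 fold change over all libraries 3.96, 95% interval 0.95 to 6.96, adjusted p = 0.0487).

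GATA5, a transcription factor of heart and endoderm development, had 0.161, 1.11 and 0.795 FPKM in AKG-treated libraries, from 21, 154 and 114 counts, and no reads in AKG-free libraries. It was under the filter, and its mean was at least 35.4-fold higher with AKG against the same floor. When all 47 genes were tested, GATA5 and TPRG1 were the 2 that passed (edgeR adjusted p = 0.0165 for each). ENSBTAG00000038893 on chromosome 5, annotated in the deposited table with the kinetochore and mitotic chromosome segregation, had 4.52, 7.32 and 6.60 FPKM with AKG, against 0.435, 0.456 and 1.21 FPKM without. Its nearest libraries were 3.74-fold apart, and it rose 8.79-fold between means, 13.8-fold without AKG-free library 3 (edgeR log2 fold change 3.13, SE 0.785, adjusted p = 0.0403). ENSBTAG00000053922, a long noncoding RNA on chromosome 4, had 10.9, 8.26 and 8.23 FPKM with AKG and no reads without, at least 76.2-fold higher (edgeR adjusted p = 0.0443). The highest of these AKG-treated libraries was 1.33-fold above the lowest. In controls ENSBTAG00000053922 had 4.87, 13.1 and 0 FPKM, so control library 3 also lacked reads.

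**Figure D2:**
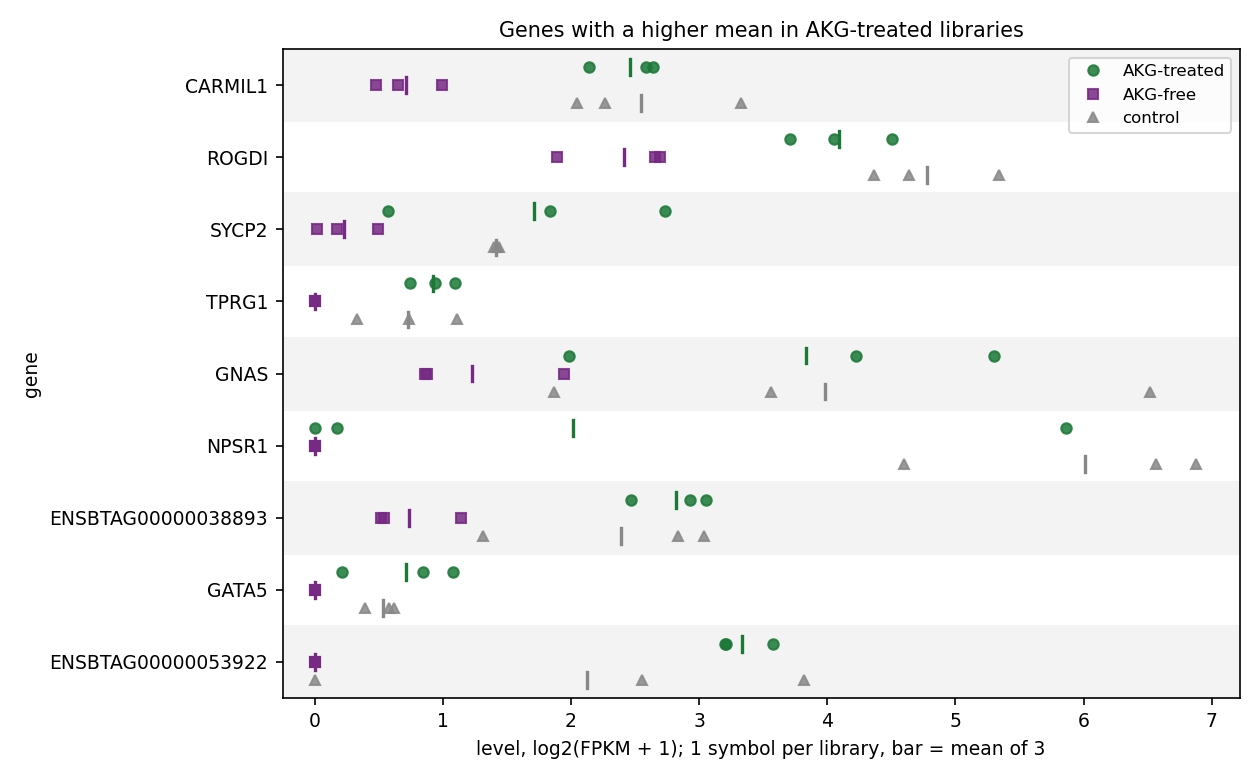
Level of each gene with a higher mean in AKG-treated libraries, as log2(FPKM + 1) on the x axis, with 1 symbol per library and a bar at the mean of each group of 3. CARMIL1, ROGDI, TPRG1, ENSBTAG00000038893 and ENSBTAG00000053922 show AKG-treated libraries close together and above all AKG-free libraries. The AKG-treated mean of NPSR1 comes from library 1.

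Of 4 genes of G protein signalling and hormones, 1 rose, 1 missed the threshold and 2 were too low to test, and the tested genes varied widely between AKG-treated libraries. GNAS (ENSBTAG00000047223, chromosome 13, 57465320 to 57532635), an imprinted locus that encodes the α subunit of the G protein that activates adenylate cyclase, had 17.7, 2.95 and 38.5 FPKM in AKG-treated libraries, against 2.86, 0.817 and 0.834 FPKM in AKG-free libraries. AKG-treated library 2 was only 1.03-fold above AKG-free library 1. The 13.1-fold difference of means, 6.87-fold without AKG-treated library 3 and 23.9-fold without AKG-free library 1, missed the threshold (edgeR log2 fold change 3.71, adjusted p = 0.0537, 95% interval 0.24 to 7.17). In control libraries GNAS had 2.65, 90.6 and 10.8 FPKM, a 34.2-fold spread beside 13.0-fold among AKG-treated libraries. The GNAS locus makes several overlapping transcripts, which a single value per gene does not distinguish. NPSR1 (ENSBTAG00000013768, chromosome 4, 62120709 to 62274639), the G protein-coupled receptor for neuropeptide S, had 57.3, 0 and 0.128 FPKM in AKG-treated libraries, against no reads in AKG-free libraries. The counts with AKG were 4630, 0 and 12, so a single library carried the difference. edgeR placed NPSR1 past the threshold (adjusted p = 0.0487), and limma on log2(FPKM + 1) did not (adjusted p = 0.191). Control libraries had 116, 23.2 and 93.6 FPKM.

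The control libraries, which share no treatment label with either vitrified group, give the level of the same genes for reading beside these values. Among the genes that rose, CARMIL1 had 3.12, 9.01 and 3.81 FPKM in controls, a range that holds all 3 AKG-treated values. ROGDI had 19.6, 39.5 and 23.9 FPKM and ENSBTAG00000038893 had 7.21, 1.48 and 6.12 FPKM in controls, above every AKG-free library. SYCP2 had 1.71, 1.64 and 1.67 FPKM in controls, with AKG-treated values above and below. The range of controls held 3 AKG-treated values each for TPRG1 and ENSBTAG00000053922, and 2 for ENSBTAG00000038893. It held 1 each for ROGDI and NPSR1, and 0 for SYCP2 and the untested GATA5. Among the genes that fell, S100A11 had 24.9, 25.1 and 23.4 FPKM in controls, below all AKG-treated and AKG-free libraries. FKBP7 had 3.63, 1.49 and 4.03 FPKM and NUCB2 had 111, 111 and 114 FPKM in controls, also below all vitrified libraries. COX7B2 had 58.4, 45.4 and 49.4 FPKM in controls, values that lie among those of the AKG-treated libraries.

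**Figure D3:**
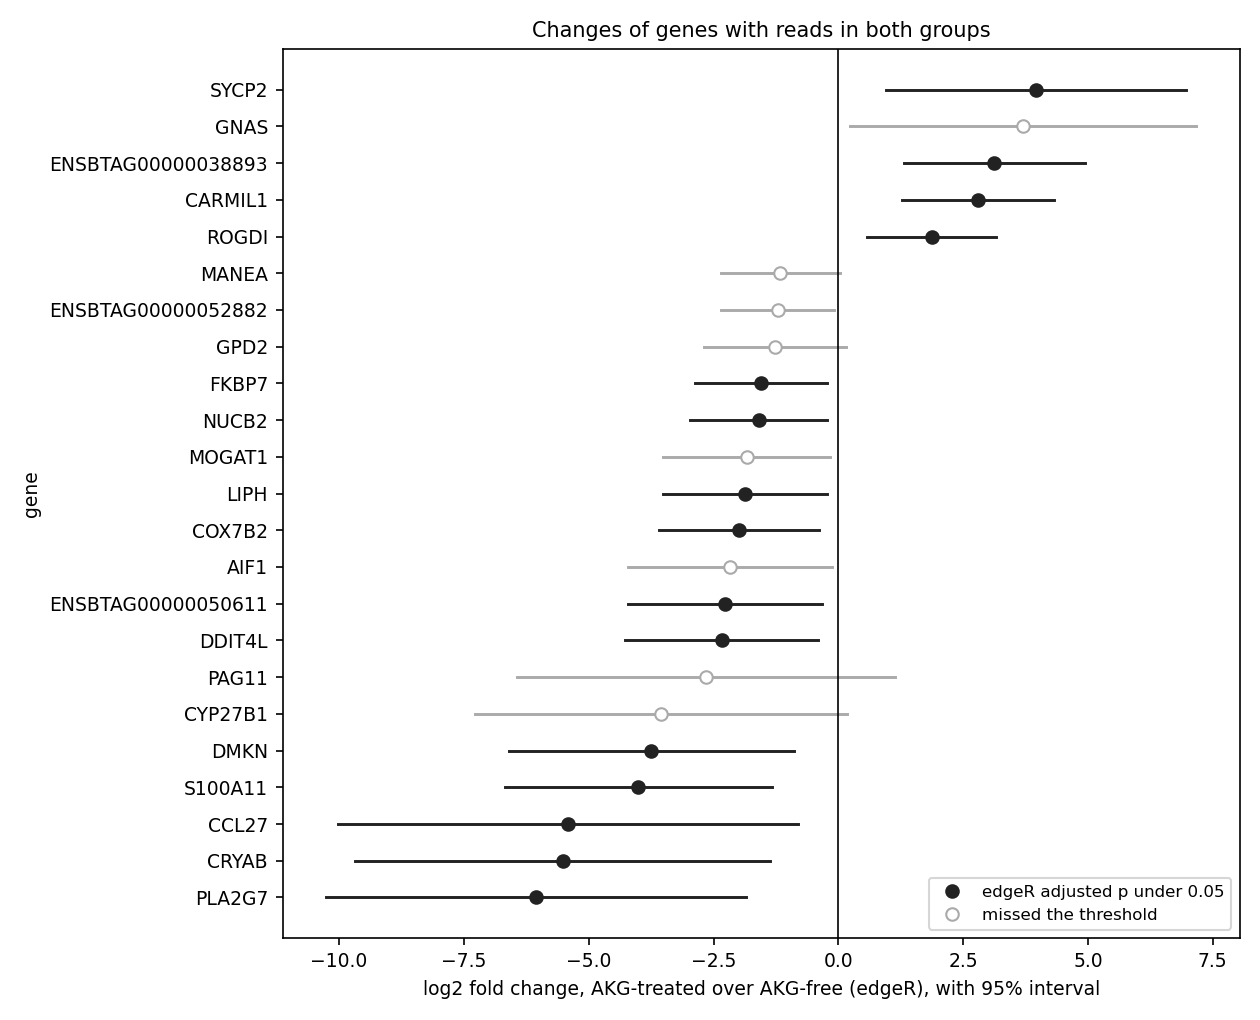
edgeR log2 fold change of AKG-treated over AKG-free libraries (x axis) with its 95% interval, for the tested genes with reads in both groups; filled symbols had an adjusted p under 0.05. The 5 genes to the right of 0 run from 1.87 for ROGDI to 3.96 for SYCP2, and PLA2G7 at -6.05 lies farthest to the left with an interval of -10.3 to -1.84.

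Libraries of the compared groups did not overlap for 19 of the 29 tested genes, 7 higher and 12 lower with AKG, which are 24.1% and 41.4% of those tested. Of the 18 genes past the threshold, 6 higher and 6 lower genes had separate libraries. The higher gene with overlapping libraries was NPSR1, and the 5 lower ones were S100A11, NUCB2, COX7B2, DDIT4L and ENSBTAG00000050611. A further 7 genes had separate libraries and missed the threshold. They were MANEA, MOGAT1, GPD2, CYP27B1, PAG11, GNAS and ENSBTAG00000052882. Of the separate genes, CRYAB, CCL27, DMKN and CYP27B1 passed the filter through AKG-free libraries alone. TPRG1 would have missed the filter without its AKG-treated libraries. The separation of these genes is therefore no support for a direction.

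The AKG-free libraries were less alike than the AKG-treated libraries. Over the 21 tested genes with reads in all 6 compared libraries, the median ratio of the highest to the lowest library was 2.22 in the AKG-treated group, 3.50 in the AKG-free group and 2.34 in controls. That ratio exceeded 2 for 13 genes in the AKG-treated group and 20 genes in the AKG-free group. AKG-free library 1 stood nearest to the AKG-treated group. The median difference over the 29 genes, on the log2(FPKM + 1) scale, was -0.09, -0.21 and -0.20 for AKG-treated libraries 1, 2 and 3 minus AKG-free library 1. Against AKG-free library 2 it was -1.29, -1.40 and -1.69, and against AKG-free library 3 it was -1.61, -1.40 and -1.82. Among the 21 tested genes with a lower mean in the AKG-treated group, all 3 AKG-treated libraries lay below AKG-free library 1 for 13, below library 2 for 20 and below library 3 for 19. For the 18 of those with reads in every AKG-free library, library 1 was the lowest AKG-free library for 14, and library 3 the highest for 13. The 21 genes include those that passed the filter through AKG-free libraries alone.

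**Figure D4:**
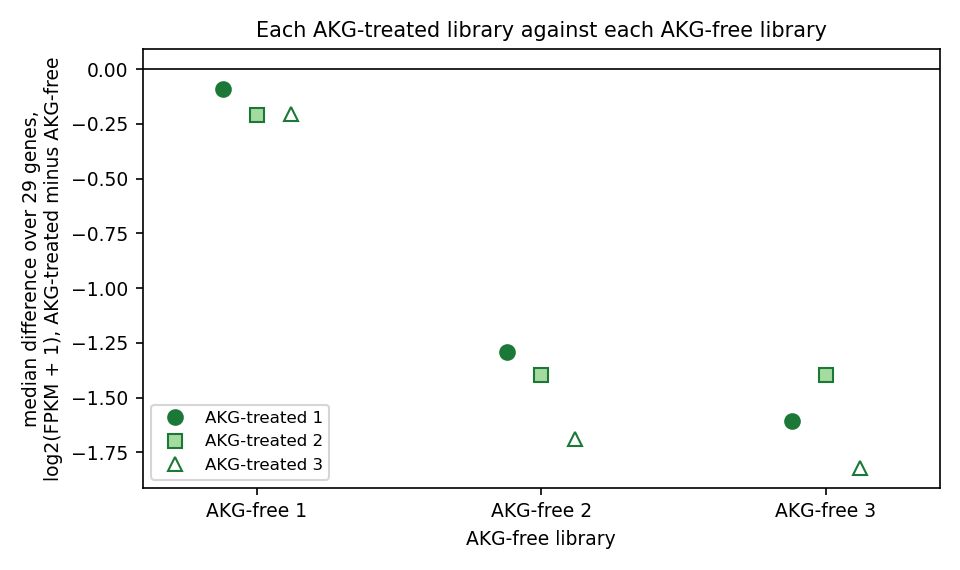
Median difference over the 29 tested genes on the log2(FPKM + 1) scale (y axis) for each AKG-treated library minus each AKG-free library (x axis). Differences from AKG-free library 1 lie between -0.21 and -0.09, and those from AKG-free libraries 2 and 3 between -1.82 and -1.29.

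No reads were found in any AKG-treated library for 20 of the 47 genes, and none of these 20 had reads in controls either. Of these, 18 had reads in a single AKG-free library, which was library 1 for 1 gene, library 2 for 11 and library 3 for 6, and 2, PYCARD and PRSS48, had reads in 2 AKG-free libraries. The nonzero values ran from 66 to 3434 counts. AKR1D1 had 2.35 FPKM in AKG-free library 1. In AKG-free library 2, TMEM217, a membrane protein of little known function, had 2.56 FPKM, HMGCLL1 had 1.24, INSL3, an insulin-like hormone of the gonads, had 1.37 and FAM237B had 3.18 FPKM. AKG-free library 3 held MMP19, a matrix metallopeptidase, at 1.18 FPKM, UPK3A, a membrane protein of the bladder lining, at 1.59, CCK, the hormone cholecystokinin, at 1.53, ANKRD22 at 1.06 and ANKRD66 at 1.72 FPKM. PRSS48, a serine protease, was at 1.22 and 1.39 FPKM in AKG-free libraries 1 and 2, with none in library 3. With the exception of PYCARD, ENSBTAG00000052298 and ENSBTAG00000053475, these 20 genes lay below the filter and were not tested, and since each was at 0 in at least 1 AKG-free library, the groups overlap for all 20.

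Some of the genes seen in 1 library had another listed gene near them or alike in annotation. ANKRD66 lies 6885 bases from PLA2G7 on chromosome 23, the closest pair on the list. AKG-free library 3 was the highest library for both, although PLA2G7 had reads in every library. ENSBTAG00000009197 and ENSBTAG00000039825, both on chromosome 29 and both annotated with zinc ion binding, had 1.95 and 2.29 FPKM in AKG-free library 2 and no reads elsewhere. ENSBTAG00000053057 on chromosome 27, which shares the defence annotation of ENSBTAG00000050611, had 4.38 FPKM in AKG-free library 2 only. The 3 remaining untested genes without a symbol, ENSBTAG00000034332, ENSBTAG00000049112 and ENSBTAG00000051669, were likewise seen in AKG-free library 2 alone, at 2.20, 1.41 and 2.46 FPKM. The highest value of this kind was that of ENSBTAG00000052298 on chromosome 21, annotated as a subunit of the GABA-A receptor, a chloride channel. It had 40.2 FPKM in AKG-free library 3, 0 in the other 8 libraries, and missed the threshold (edgeR adjusted p = 0.0999). ENSBTAG00000053475 had 5.41 FPKM in AKG-free library 2 alone and also missed it (edgeR adjusted p = 0.104).

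**Figure D5:**
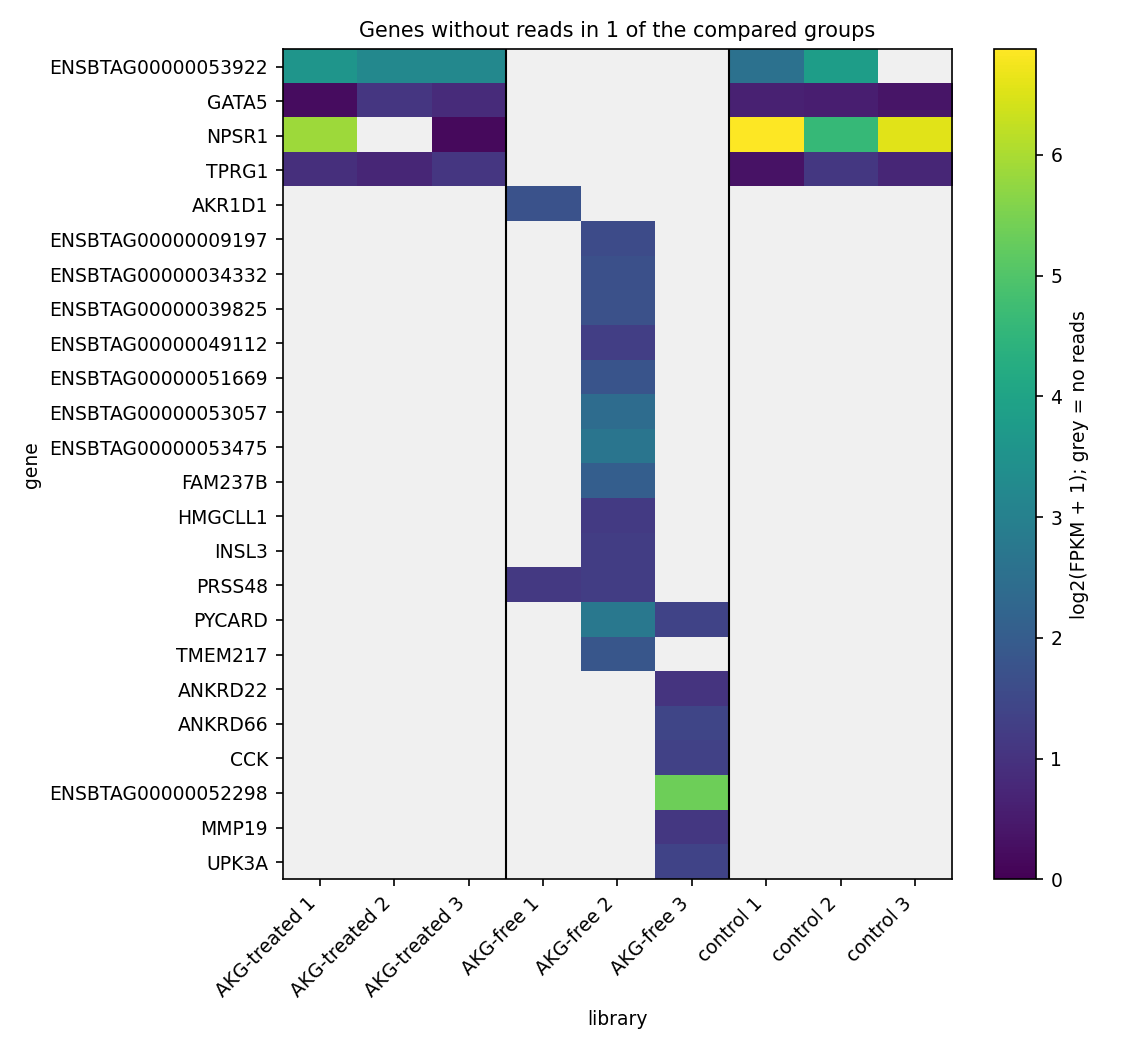
Level, as log2(FPKM + 1) in colour with grey for no reads, of the genes without reads in all AKG-treated or all AKG-free libraries (rows) in each of the 9 libraries (columns). The upper 4 genes had no reads in AKG-free libraries, and the 20 below had reads in AKG-free libraries alone, 18 of them in a single library.

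Lists of 28 antioxidant genes, 27 genes of the tricarboxylic acid cycle and AKG metabolism, 24 AKG-dependent dioxygenases and 13 apoptosis genes had no member among the 47. Those genes were not analysed here.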

How the data were processed

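The submitters' processing notes name cutadapt 1.9, HISAT2 2.0.4, StringTie 1.3.4d and edgeR, with no role for each. No source used here names a genome build or annotation. The authors deposited FPKM and counts, per the file headers, in 1 table of the series, whose FPKM were identical to all 9 single-library tables. Nothing states that counting used strand, so overlapping genes, and near-identical copies, are uncertain.

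Counts over 47 selected genes are not library depth. The ratio of count to FPKM over 13 genes, each at 100 counts or more in every library, gave relative depth instead, and no gene deviated from its library's factor by more than 0.733%. The main test was edgeR's quasi-likelihood test (version 4.0.16, R 4.3.3) with relative depth as library size, 1 common dispersion and no trend, on all 9 libraries, without a composition factor, since the listed genes are all presented as differing. Control libraries thus contribute to the spread and, through the filter, to which genes were tested. The SE of a log2 fold change is its size divided by the root of the F statistic, and intervals are 95%. Genes under a mean of 0.5 FPKM over the 9 libraries, 18 of 47, were not tested. Alternatives were a mean of at least 5 FPKM, no filter, DESeq2 (1.42.0), limma (3.58.1) on log2(FPKM + 1) and log2(FPKM + 0.1), TMM factors, DESeq2 size factors, the 6 compared libraries, the replicate number as a block, leaving out each library, and, added after seeing the data, only genes with reads in at least 3 libraries. The exact permutation test of 3 against 3 cannot give a two-sided p below 0.1 and was not used. The edgeR step was run on 50 simulated tables with 10 changed genes each. It recovered 100% of these, and 4.55% of unadjusted edgeR p-values were under 0.05 without a change. The simulation had a smaller dispersion than the 1.02 fitted here, larger changes than most fitted here and no very low means. It therefore checks that the step runs correctly and does not show how the test performs on these data. A fold against a group without reads is a lower bound against 3 counts in each library; floors cover counting error only, because PCR copies cannot be told from separate molecules.

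All listed genes were covered by function group: in full those with a symbol that passed the filter, by level and library the others, and by ID genes without a symbol that passed the test; other IDs were named after their values were seen. Members, groups and lists were chosen with earlier results of these data known. Python 3.11.15, numpy 2.4.6, pandas 2.3.3 and matplotlib 3.10.9 were used for joining and plots.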

Additional observations from a re-analysis of the deposited data

How the results depend on the processing

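The main counts were 7 higher and 11 lower genes. DESeq2 gave 20 lower, and the filter of reads in at least 3 libraries, added after seeing the data, gave 8 higher and 15 lower. With limma on log2(FPKM + 1), 5 genes called in edgeR missed the threshold, and 3 others passed it. The 5 were PLA2G7, DMKN, DDIT4L, ENSBTAG00000050611 and NPSR1. With limma on log2(FPKM + 0.1), 3 genes called in edgeR missed the threshold, and 6 others passed it. A mean of at least 5 FPKM gave 4 higher and 11 lower among 17 genes. All 47 genes without a filter gave 2 higher and 0 lower in edgeR (7 lower by unadjusted p under 0.05), and the 6 compared libraries gave 4 higher and 0 lower (14 with an unadjusted p under 0.05). Leaving out 1 library gave 1 to 8 higher and 0 to 16 lower genes. TMM and DESeq2 size factors, estimated from the listed genes, moved the log2 fold changes upward by a median of 1.59 and 1.17 and gave 0 lower genes each in edgeR (3 and 5 at an unadjusted p under 0.05). Under TMM the sign turned for FKBP7 (0.25), MANEA (0.55), GPD2 (0.18), NUCB2 (0.13), COX7B2 (0.0174) and ENSBTAG00000052882 (0.56), and under DESeq2 size factors for MANEA (0.0715) and ENSBTAG00000052882 (0.0607). Both methods take most genes as unchanged, which a list of genes presented as differing does not meet. With the replicate block, edgeR called 1 higher and 0 lower genes, and at an unadjusted p under 0.05 it called 7 and 8. No label says whether the numbers pair the libraries. Same-numbered AKG-treated and AKG-free libraries deviated together with r = 0.07, 0.07 and 0.02 over 29 genes. Correlations over so few selected genes cannot show whether libraries were paired. Each library correlated best with its own number, but values this small do not show pairing. Except where a construction is named, the cause of these shifts was not tested. Absolute depth is unknown, and a count of 0 in a library allows up to 3 counts.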
